A study of Homo sapiens with 6 samples.

Results

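The genes described here are 47 genes that drive mitosis and build the spindle, chosen by symbol from the 58735 genes of the count table. They cover the cyclins and kinases of mitotic entry, the spindle checkpoint, the chromosomal passenger complex, centromere and kinetochore proteins, kinesins, spindle proteins, cytokinesis factors and the proteins that separate and mark mitotic chromosomes. Each of the 47 symbols named 1 row of the table, and all 47 were among the 15801 genes that passed the filter on low counts and were tested.

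A cell enters mitosis when cyclin A and cyclin B activate the kinase CDK1. The spindle then captures chromosomes at kinetochores, a checkpoint holds the cell until all chromosomes are attached, and the anaphase-promoting complex with CDC20 starts chromatid separation. Most of these genes are controlled by the DREAM, B-MYB and FOXM1 complexes and are transcribed mainly in G2 and M phase. In a population of dividing cells their RNA is therefore commonly read together as a sign of proliferation. Colorectal cancer cells in culture divide continuously and express these genes, at levels that differ widely from gene to gene.

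The cells were LoVo, a long-established line from a human colorectal tumour, given either a negative control siRNA (si-NC, 3 libraries) or an siRNA against the splicing factor SRSF11 (si-SRSF11, 3 libraries). Polyadenylated RNA was sequenced as paired-end reads and deposited as raw counts per gene. The line is a single model, the transfection reduced SRSF11 without removing it, and the siRNA sequence used for sequencing and the time after transfection were not given in the sources used here. The study describes its RNA samples as independent and as control and knockdown pairs, but neither it nor the labels say whether each came from a separate culture. The p-values therefore measure the spread between these libraries, which may be partly technical. RNA was read from whole cultures, so fewer cells in mitosis and less of these RNAs per cell cannot be told apart.

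Library totals ranged from 14369525 to 16685719 counts. SRSF11 stood at 87.6, 84.3 and 87.5 CPM (counts scaled to the library total with TMM factors) in the si-NC libraries and at 50.4, 48.5 and 49.5 in the si-SRSF11 libraries, a log2 fold change of -0.81 ± 0.054 (SE, adjusted p = 6.1e-10, edgeR). The targeted gene was therefore lower in every library labelled si-SRSF11. Of 10 markers of an intestinal epithelial line, 10 were tested, 2 were called higher (CDX1 and CDX2), and their summed level, here in CPM of the library total without TMM factors, was 5830 to 6120 in si-NC and 5810 to 6090 in si-SRSF11. KRT20 and CEACAM5 were near the floor, with 6 to 20 and 10 to 20 counts per library. Of 10 markers of blood, stromal and endothelial cells, 7 had under 10 counts in every library (PTPRC had 0), and their summed level, also in CPM without TMM factors, was 20.3 to 24.0 in si-NC and 24.9 to 30.1 in si-SRSF11. PDGFRB alone of these was called, higher, with a log2 fold change of 0.70 on 114 to 246 counts per library. COL1A1, with 179 to 206 counts per library, was not called. At an adjusted p under 0.05, 24.6% of all tested genes were called, 13.2% higher and 11.4% lower in si-SRSF11.

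Promoters of 40 of the 47 genes were searched for known elements, and most but not all held a match. The symbols were chosen for mitotic roles, a class mostly controlled by DREAM, B-MYB and FOXM1 complexes. The shares below are therefore not independent of that choice. RefSeq promoters (GRCh38.p14, 250 bases before to 50 bases after the annotated start) were matched by symbol for 40 of the 47 genes, and TPX2, BIRC5, FOXM1, RACGAP1, TTK, AURKA and BUB3 had no row. The cell cycle genes homology region (CHR), an element bound by DREAM and B-MYB complexes, was searched as TTTGAA or TTCGAA, and the CCAAT box, bound by NF-Y, as CCAAT, each on both strands. TTCGAA reads the same on both strands, and a CHR followed by a CCAAT box on the opposite strand can share bases, as in CDCA8. A CHR match was found in 31 of 40 member promoters (77.5%), against 16.6% of 27305 promoters. A CCAAT match was found in 31 of 40 (77.5%), against 35.7% of all, and both were found in 26 of 40 (65.0%), against 6.6%. At least 2 CCAAT matches were present in 20 of 40, against 11.3% of all. The median position of the first base was -75 for 67 CCAAT matches and -23 for 42 CHR matches, counted from the start site. These medians pool all matches, and the order within single promoters was not counted. In CCNB2 a CCAAT match at -54 lay upstream of the CHR match at -29. In CDC20 a CCAAT match at -55 lay downstream of a CHR match at -65.

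The windows shown run from 100 bases before to 50 after the start site, with CHR and CCAAT matches of either strand in capitals. CCNB2, CDC20, CENPA and CDCA8 are shown because their RNA was lower in si-SRSF11, CENPF because it was higher, and CCNB1 because it did not pass the test. The positions on GRCh38.p14, all on the plus strand, are chr15:59105046-59105195 for CCNB2, chr1:43358881-43359030 for CDC20, chr2:26785956-26786105 for CENPA, chr1:37692416-37692565 for CDCA8, chr1:214603095-214603244 for CENPF and chr5:69167050-69167199 for CCNB1.
CCNB2: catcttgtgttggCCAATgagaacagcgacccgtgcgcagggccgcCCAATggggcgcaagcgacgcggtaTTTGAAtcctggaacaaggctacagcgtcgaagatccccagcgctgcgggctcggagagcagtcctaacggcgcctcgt
CDC20: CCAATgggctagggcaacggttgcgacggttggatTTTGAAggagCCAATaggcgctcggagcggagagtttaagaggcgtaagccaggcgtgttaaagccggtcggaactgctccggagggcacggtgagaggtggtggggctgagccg
CENPA: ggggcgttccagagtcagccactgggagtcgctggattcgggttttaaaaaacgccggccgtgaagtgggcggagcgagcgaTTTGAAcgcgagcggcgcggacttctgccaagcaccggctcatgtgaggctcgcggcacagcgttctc
CDCA8: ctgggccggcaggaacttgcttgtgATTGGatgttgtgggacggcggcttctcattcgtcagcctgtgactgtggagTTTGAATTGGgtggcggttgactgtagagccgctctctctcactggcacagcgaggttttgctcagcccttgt
CENPF: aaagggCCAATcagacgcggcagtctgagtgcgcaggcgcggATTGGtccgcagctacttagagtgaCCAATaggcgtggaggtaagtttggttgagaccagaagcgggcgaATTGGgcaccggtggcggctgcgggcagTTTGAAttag
CCNB1: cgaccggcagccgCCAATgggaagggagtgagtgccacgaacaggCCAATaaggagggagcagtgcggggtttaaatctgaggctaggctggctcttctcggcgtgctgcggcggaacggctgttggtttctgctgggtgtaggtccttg
CCNB2, CDC20 and CENPF carry several CCAAT boxes together with a CHR match. CCNB1 carries a pair of CCAAT boxes and neither TTTGAA nor TTCGAA in this window. Other forms of the CHR, such as the TTTAAA letters present in the CCNB1 window, were not searched. Among the 11 members called lower that have a promoter row, 6 had a CHR match and 9 a CCAAT match. Among the 28 that were not called, 24 had a CHR match and 21 a CCAAT match. CCNA2, CDC25C, AURKB, KIF2C and PTTG1 were called lower and had neither TTTGAA nor TTCGAA in the searched promoter. A single promoter per gene was searched, so a gene without a match may hold a CHR in another form or at another start site. Whether the shares differ between called and uncalled members was not tested.

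Of the 47 genes, 15 were called at an adjusted p under 0.05 (31.9%, against 24.6% of all tested genes), and 13 of these were lower in si-SRSF11 (27.7%, against 11.4%) and 2 higher (4.26%, against 13.2%). The changes were small. CENPF, the largest, stood at 150% of si-NC, and the 13 falls left between 72.6% (CDC25C) and 89.4% (CDCA8) of the si-NC level. The median log2 fold change was -0.10 over the 47 genes and 0.00 over all tested genes, and 34 of 47 had a value below 0 (72.3%, against 49.8%). The 3 si-SRSF11 libraries did not overlap the 3 si-NC libraries for 24 of 47 genes (51.1%, against 38.8% of all tested genes), 21 of them lower and 3 higher. Over the tested protein-coding genes alone, a class that holds all 47, the shares were closer for calls and overlap. There, 27.4% were called, 12.1% lower and 15.4% higher, and 41.8% showed no overlap. CENPF was the only member called with an absolute log2 fold change over 0.5, a rule that 4.99% of all tested genes met, and no member had an absolute log2 fold change over 1 at any p, in edgeR or in DESeq2. A member that was not called is not shown to be the same in both groups.

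Summed over the 47 genes, the level was 2854, 2814 and 2870 CPM in si-NC and 2703, 2645 and 2675 in si-SRSF11. The si-SRSF11 libraries were all below the si-NC libraries. The median deviation of the 47 genes from their si-NC mean was -0.08, -0.09 and -0.10 in log2 CPM in the 3 si-SRSF11 libraries, against values between 0.00 and 0.01 for all tested genes.

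**Figure D1:**
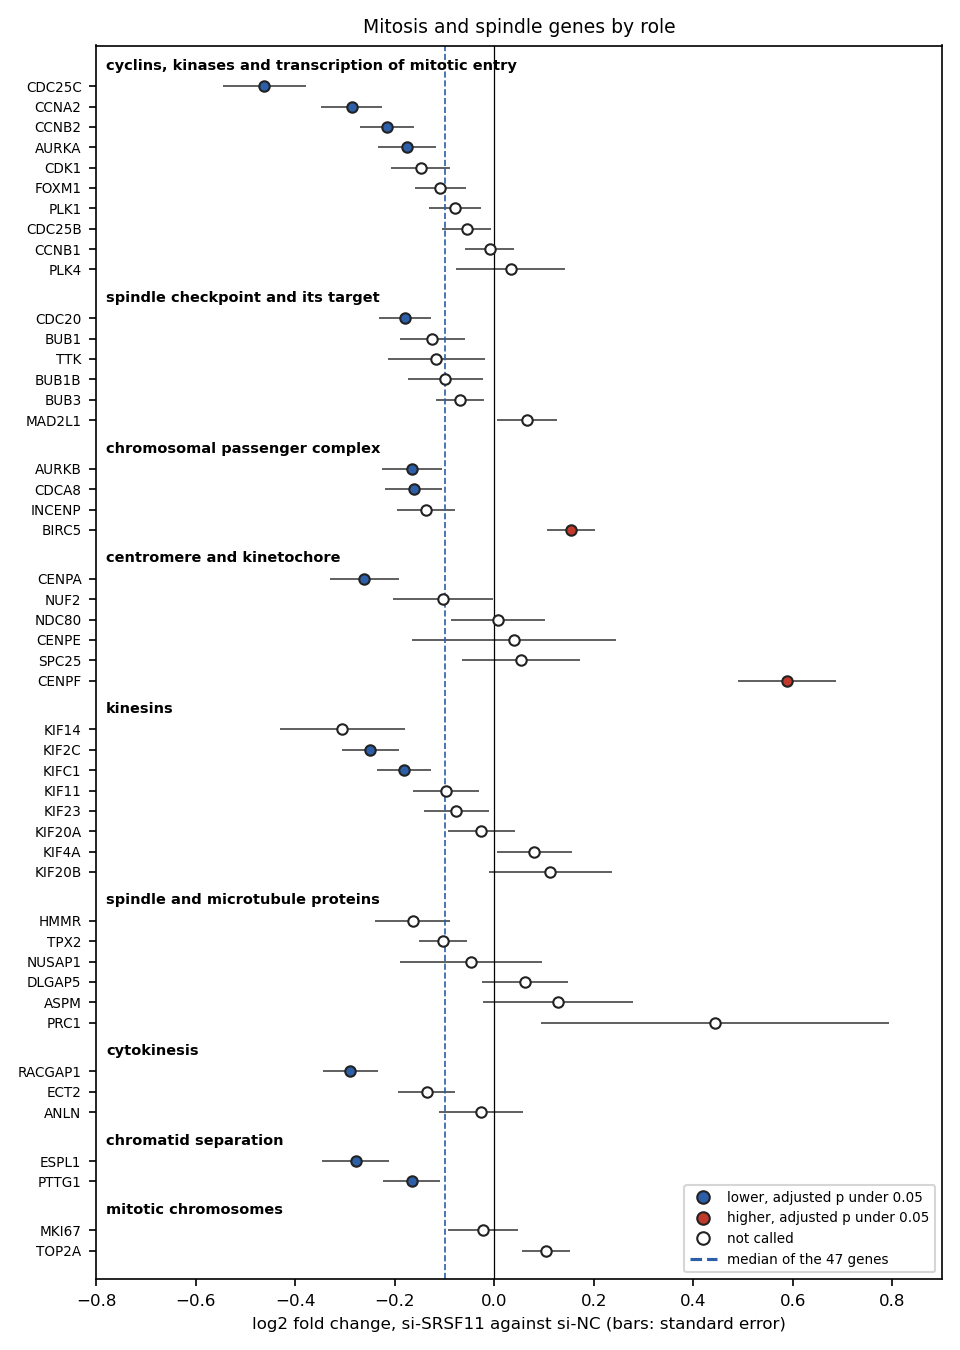
The log2 fold change of each of the 47 genes in si-SRSF11 against si-NC, grouped by role, with the standard error as bars (3 libraries per group). Filled points passed an adjusted p under 0.05, 13 to the left of 0 and 2 (BIRC5 and CENPF) to the right, and the dashed line marks the median of -0.10.

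The counts by role that follow rest on 2 to 10 genes each. They are to be read against 24.6% of all tested genes called and 38.8% without overlap. Among the 10 genes of mitotic entry, 4 were called and all 4 were lower. CDC25C, a phosphatase that removes the inhibitory phosphates from CDK1 (ENSG00000158402, chromosome 5 of GRCh38, 138285265 to 138338355, minus strand), stood at 36.1, 33.6 and 31.6 CPM in si-NC and at 26.1, 21.7 and 25.6 in si-SRSF11. Every si-SRSF11 library was lower, with a log2 difference of -0.46 ± 0.083 (SE, adjusted p = 0.00029, edgeR). CDC25C shares 8.78% of its exon bases with FAM53C, on the opposite strand.

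CCNA2, the cyclin of S and G2 phase (ENSG00000145386, chromosome 4, 121816444 to 121823933, minus strand), stood at 59.1, 59.5 and 64.5 CPM in si-NC and at 52.2, 47.4 and 50.7 in si-SRSF11, a log2 difference of -0.29 ± 0.061 (SE, adjusted p = 0.0014). CCNB2, a B-type cyclin, stood at 89.6, 92.3 and 91.5 CPM in si-NC and at 74.4, 77.7 and 83.4 in si-SRSF11, with a log2 fold change of -0.22 ± 0.054 (SE, adjusted p = 0.005). AURKA, the kinase of the spindle poles, stood at 65.0, 61.0 and 66.2 CPM in si-NC and at 57.9, 54.0 and 58.4 in si-SRSF11, with a log2 fold change of -0.17 (adjusted p = 0.032). The groups did not overlap for these 3 genes. EXOSC9 on the opposite strand covers 9.08% of the exon bases of CCNA2.

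CCNB1, the main mitotic cyclin, stood at 120.0, 122.0 and 125.0 CPM in si-NC and at 120.0, 116.0 and 127.0 in si-SRSF11. Its groups overlapped, and the log2 fold change was -0.01 ± 0.049 (SE, adjusted p = 0.91). The B-type cyclins thus gave unlike values, and the difference between them was not tested. CDK1, the kinase both cyclins activate, stood at 54.1, 55.9 and 54.1 CPM in si-NC and at 47.3, 49.8 and 51 in si-SRSF11. The groups did not overlap, but CDK1 did not pass (log2 fold change -0.15 ± 0.059 SE, adjusted p = 0.071). FOXM1, a transcription factor of G2 and M phase genes, had a log2 fold change of -0.11 (adjusted p = 0.13) with no overlap between the groups, and ITFG2 on the opposite strand covers 15.94% of its exon bases. The kinase PLK1 (-0.08), the phosphatase CDC25B (-0.05) and PLK4, the kinase of centriole duplication (0.03), had adjusted p-values between 0.30 and 0.86 and overlapping groups.

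In the spindle checkpoint, which delays anaphase until all kinetochores are attached, 1 of 6 genes was called. CDC20, the activator of the anaphase-promoting complex that the checkpoint holds back, stood at 182.0, 181.0 and 190.0 CPM in si-NC and at 162.0, 152.0 and 174.0 in si-SRSF11, with a log2 fold change of -0.18 ± 0.052 (SE, adjusted p = 0.014). Its si-SRSF11 libraries were all below its si-NC libraries. BUB1 (-0.12), BUB1B (-0.10), BUB3 (-0.07) and the kinase TTK (-0.12) lay below 0 and MAD2L1 (0.07) above it, with adjusted p-values between 0.17 and 0.47. Of these 5, TTK alone showed no overlap, with 16.2, 16.1 and 15.2 CPM in si-NC and 14, 14.7 and 15 in si-SRSF11.

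The chromosomal passenger complex consists of the kinase AURKB with INCENP, borealin (CDCA8) and survivin (BIRC5), and 3 of its 4 genes were called, in unlike directions. AURKB stood at 55.4, 55.7 and 60.5 CPM in si-NC and at 49.0, 51.5 and 52.6 in si-SRSF11 (log2 fold change -0.17, adjusted p = 0.049). CDCA8 stood at 65.4, 63.4 and 59.8 CPM in si-NC and at 55.8, 54.6 and 58.1 in si-SRSF11 (log2 fold change -0.16, adjusted p = 0.045). INCENP, at -0.14, missed the threshold (adjusted p = 0.09). BIRC5, which is also an inhibitor of apoptosis, stood at 117.0, 123.0 and 116.0 CPM in si-NC and at 128.0, 131.0 and 138.0 in si-SRSF11, and it was higher (log2 fold change 0.15 ± 0.049 SE, adjusted p = 0.024). The groups overlapped for none of the 4 genes. With scaling by library size alone the log2 fold change of BIRC5 was 0.12 and did not pass (adjusted p = 0.075).

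**Figure D2:**
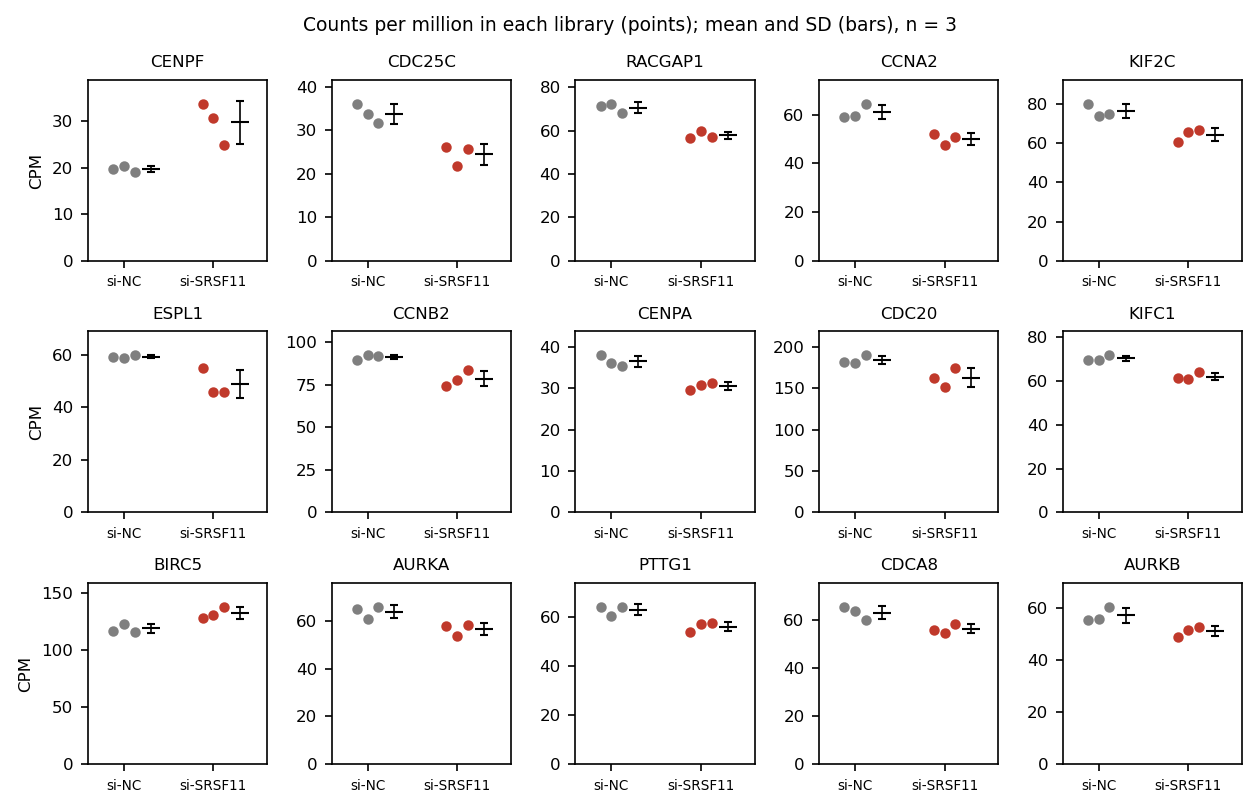
TMM-scaled CPM of the 15 called genes in each of the 3 si-NC libraries (grey) and 3 si-SRSF11 libraries (red), ordered by adjusted p, with the mean and SD of each group as bars and each vertical axis starting at 0. CENPF and BIRC5 were higher in each si-SRSF11 library than in any si-NC library, and the other 13 genes were lower.

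At the centromere and kinetochore, 2 of 6 genes were called, 1 in each direction. CENPF, a very large protein that binds the outer kinetochore in G2 and M phase (ENSG00000117724, chromosome 1, 214603195 to 214664588, plus strand), stood at 19.7, 20.5 and 19.1 CPM in si-NC and at 33.8, 30.8 and 24.8 in si-SRSF11. Its groups did not overlap, with a log2 fold change of 0.59 ± 0.098 (SE, adjusted p = 0.00013). The si-SRSF11 libraries were widely spread, and the log2 fold change was 0.48 without si-SRSF11 replicate 1 and 0.70 without si-SRSF11 replicate 3. CENPF shares no exon base with another annotated gene. CENPA, the histone variant that marks centromeres, stood at 38.0, 36.2 and 35.4 CPM in si-NC and at 29.5, 30.7 and 31.3 in si-SRSF11, and it was lower (log2 fold change -0.26 ± 0.069 SE, adjusted p = 0.0081). CENPA shares 6.96% of its exon bases with SLC35F6 on the same strand, which was given 1779 to 2029 counts per library against 461 to 552 for CENPA. NDC80 (0.01), NUF2 (-0.10) and SPC25 (0.05), subunits of the complex that grips microtubules, and the kinetochore motor CENPE (0.04) had adjusted p-values between 0.49 and 0.97. CENPE had only 53 to 88 counts per library, and the standard error of its log2 fold change was 0.205.

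Of the 8 kinesins, the motor proteins that move along or take apart microtubules, 2 were called and both were lower. KIF2C, which depolymerizes microtubules at centromeres (ENSG00000142945, chromosome 1, 44739818 to 44767767, plus strand), stood at 80.2, 73.7 and 75.1 CPM in si-NC and at 60.4, 65.6 and 66.6 in si-SRSF11, with a log2 fold change of -0.25 ± 0.057 (SE, adjusted p = 0.0027). KIFC1, a motor that bundles microtubules at the spindle poles, stood at 69.6, 69.6 and 71.9 CPM in si-NC and at 61.3, 61.0 and 64.0 in si-SRSF11, with a log2 fold change of -0.18 (adjusted p = 0.017). The groups did not overlap for either gene. RPL12P1, a pseudogene with 0 to 5 counts, overlaps 12.68% of the exon bases of KIFC1. KIF14 had the lowest value of the kinesins, -0.31, on 122 to 172 counts per library and did not pass (standard error 0.125, adjusted p = 0.079). Its groups did not overlap. KIF11 (-0.10), KIF23 (-0.08), KIF20A (-0.03), KIF4A (0.08) and KIF20B (0.11) had adjusted p-values between 0.30 and 0.82, and of these KIF23 alone showed no overlap. Of the 100-nt windows of KIF4A, 2.12% recur in its retrocopy KIF4B, which was given 0 to 3 counts per library.

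None of the 6 spindle and microtubule proteins was called, by edgeR or by DESeq2, and 2 of them (TPX2 and HMMR) had an unadjusted p under 0.05 in edgeR. TPX2, the activator of AURKA, had a log2 fold change of -0.10 ± 0.048 (SE, adjusted p = 0.12) with no overlap between the groups. HMMR had -0.16 (adjusted p = 0.12), DLGAP5 had 0.06 and ASPM had 0.13, with overlapping groups. PRC1, which bundles the central spindle (0.44, adjusted p = 0.39), and the microtubule-binding NUSAP1 (-0.05, adjusted p = 0.85) are uncertain. PRC1 was given 0.621 to 1.79 CPM, the lowest level of the 47 genes, and 58.39% of its exon bases are shared with other genes, mostly with AC068831.7, an annotated gene on the same strand that was given 58 to 94 counts per library. NUSAP1 was given 5.99 to 6.96 CPM, and 62.16% of its exon bases are shared with AC087721.2 on the same strand, which was given 0 counts in every library. How reads on shared exons were counted is not given in the sources used here, so the level of PRC1 and NUSAP1 RNA cannot be read from these counts.

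Of the 3 cytokinesis genes, RACGAP1 was called. RACGAP1, a subunit of centralspindlin (ENSG00000161800, chromosome 12, 49976923 to 50033136, minus strand), stood at 71.4, 72.4 and 67.9 CPM in si-NC and at 56.5, 59.8 and 57.0 in si-SRSF11, with no overlap and a log2 fold change of -0.29 ± 0.056 (SE, adjusted p = 0.00059). Its centralspindlin partner, the kinesin KIF23, had -0.08 and did not pass (adjusted p = 0.44). ECT2, the exchange factor that centralspindlin recruits, had -0.14 (adjusted p = 0.09), with no overlap, and the scaffold ANLN had -0.03 (adjusted p = 0.85).

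Both genes of chromatid separation were called, and both were lower. ESPL1, the protease separase that cuts cohesin (ENSG00000135476, chromosome 12, 53268299 to 53293643, plus strand), stood at 59.0, 58.7 and 59.8 CPM in si-NC and at 54.8, 45.7 and 45.9 in si-SRSF11, with a log2 fold change of -0.28 ± 0.067 (SE, adjusted p = 0.0039). PTTG1, securin, which inhibits separase, stood at 64.4, 60.7 and 64.3 CPM in si-NC and at 54.0, 57.1 and 57.6 in si-SRSF11, with a log2 fold change of -0.17 (adjusted p = 0.037). The groups overlapped for neither gene.

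Neither gene of the mitotic chromosomes, TOP2A or MKI67, was called, by edgeR or by DESeq2, and TOP2A alone had an unadjusted p under 0.05 in edgeR. Both are widely used as proliferation markers. TOP2A, the topoisomerase that untangles chromosomes, stood at 105, 100 and 102 CPM in si-NC and at 110.0, 108.0 and 112.0 in si-SRSF11. Its si-SRSF11 libraries were all higher, but it did not pass (log2 fold change 0.10 ± 0.048 SE, adjusted p = 0.12). MKI67, which coats mitotic chromosomes, stood at 118.0, 122.0 and 123.0 CPM in si-NC and at 136.0, 122.0 and 101.0 in si-SRSF11. The mean of the groups was close (log2 fold change -0.02 ± 0.070 SE, adjusted p = 0.85), and the 3 si-SRSF11 libraries reached from above to below all si-NC libraries.

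Per kilobase of exon in the deposited gene lengths, the highest si-NC levels of the 47 genes were 90.5 CPM per kb for CDC20, 51.9 for CDC25B, 47.7 for CCNB1 and 43.7 for TPX2. CENPF, at 1.69 CPM per kb in si-NC, stood near the low end, with KIF14 at 1.40, KIF20B at 1.298, ASPM at 0.814, CENPE at 0.437 and PRC1 at 0.187 below it. The exonic length covers all annotated transcripts, so these values order the genes only roughly.

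The calls fell unevenly over transcript length, a property seen after the calls were made. Split at the members' median of 3576 nt in the longest annotated transcript, 12 of the 24 shorter genes were called lower, and 1 of the 23 longer ones was (4.35%). The same limit gave 13.0% and 11.2% of all tested protein-coding genes. Spearman's rho between log2 fold change and length was 0.42 over the 47 genes and 0.09 over 12758 protein-coding genes, a description across genes that share the 6 libraries. Length also moved with the spread between the si-SRSF11 libraries. In si-SRSF11 replicate 3, the level relative to the mean of replicates 1 and 2 differed by -0.52 in log2 CPM for CENPE, -0.51 for ASPM, -0.38 for CENPF and -0.35 for MKI67, and by 0.15 for CDC20 and 0.13 for CCNB2. Spearman's rho of this difference with length was -0.72 over the 47 genes and -0.40 over all tested protein-coding genes. For si-SRSF11 replicates 1 and 2, each against the others of its group, rho was 0.42 and 0.26 over the 47 genes. Over the protein-coding genes it was 0.30 and 0.13. For a single si-NC library against its others, the values over the 47 genes lay between -0.23 and 0.33. The part of length in the calls was not tested. Without si-SRSF11 replicate 3, the members called were again 15 in number, 14 lower and 1 higher.

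**Figure D3:**
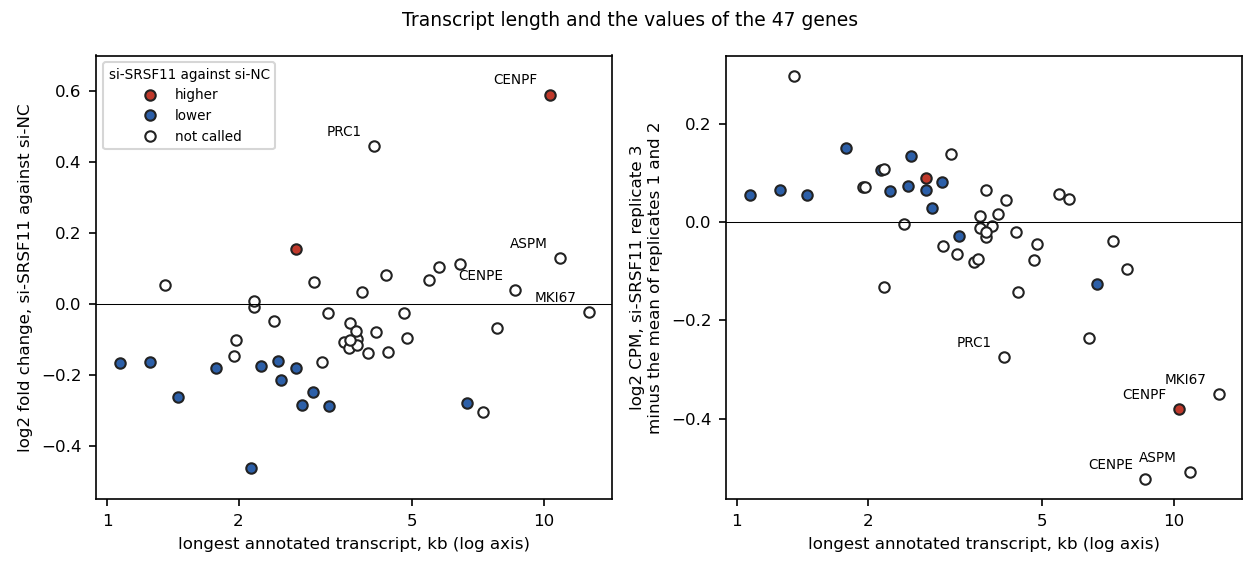
Each point is 1 of the 47 genes, placed by the length of its longest annotated transcript in kb on a log axis. Left, the log2 fold change in si-SRSF11 against si-NC, where 12 of the 13 called falls lie among the shorter genes. Right, the log2 CPM of si-SRSF11 replicate 3 minus the mean of replicates 1 and 2, which falls with length to -0.52 for CENPE.

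The calls differed in how firmly they held when single libraries were left out. CENPF, CDC25C, RACGAP1, CCNA2, KIF2C, ESPL1 and CCNB2 passed in all 6 fits made with 1 library omitted. Without si-NC replicate 1, 8 members were called, and BIRC5, KIFC1, AURKA, PTTG1, CDCA8, AURKB and CENPA were lost (adjusted p from 0.05 to 0.19). Without si-NC replicate 3, 9 were called, and CDC20, BIRC5, KIFC1, AURKA, PTTG1 and AURKB were lost (0.072 to 0.23). Without si-SRSF11 replicate 2, 9 were called, and CDC20, KIFC1, AURKA, PTTG1, CDCA8 and AURKB were lost (0.064 to 0.15). Without si-NC replicate 2, CDCA8 and AURKB were lost (0.07 to 0.12). Without si-SRSF11 replicate 1, PTTG1, CDCA8 and AURKB were lost (0.068 to 0.12) and ECT2 passed (0.028), and without si-SRSF11 replicate 3, BIRC5 was lost (0.065) and CDK1 passed (0.040). All 15 kept their direction in these 6 fits. DESeq2 called 11 of the 47, without AURKA, AURKB, CDCA8 and PTTG1 (adjusted p from 0.055 to 0.086).

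Other genes of the mitotic pathway were counted in lists that hold none of the 47. These lists were written with earlier results of these data known. Each is to be read against 13.2% higher and 11.4% lower over all tested genes. In the list of mitotic entry control, 7 of 16 genes were called and all 7 were lower, with a median log2 fold change of -0.14. CDC25A, a phosphatase that activates CDKs from G1 to M phase, fell from 40.05 ± 1.79 to 26.55 ± 0.372 CPM (SD, n = 3; log2 fold change -0.59, adjusted p = 1.8e-06, edgeR). WEE1, the kinase that opposes it by phosphorylating CDK1, fell by 0.44 on the log2 scale (adjusted p = 1.3e-05, edgeR). ARPP19, which promotes mitotic entry by inhibiting a phosphatase, fell by 0.33 (adjusted p = 1.4e-05, edgeR). The activating and the inhibiting arm of CDK1 control were thus both among the called falls.

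Of 6 tested CDK inhibitors, 3 were called and all 3 were lower. CDKN1A, p21, which arrests the cell cycle downstream of p53, fell from 457.8 ± 7.94 to 320.1 ± 23.8 CPM (SD, n = 3; log2 fold change -0.52, adjusted p = 1.9e-07, edgeR), CDKN2D fell by 0.52 on the log2 scale and CDKN1C by 0.33. CDKN2A, with 0 to 4 counts per library, was not tested.

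Of 18 genes of the anaphase-promoting complex and its partners, 3 were called (16.7%, against 24.6% of all tested genes), all lower. They were the ubiquitin-conjugating enzymes UBE2S (log2 fold change -0.34, adjusted p = 2e-04, edgeR) and UBE2C (-0.21) and the activator FZR1 (-0.25). Of 36 further kinetochore genes, 11 were called (30.6%), 7 lower (19.4%) and 4 higher (11.1%). Among them were HJURP, the chaperone that deposits CENPA (-0.31, adjusted p = 3e-04, edgeR), SKA1 (-0.44) and DSN1 (-0.44). Of 26 centrosome and gamma-tubulin genes, 8 were called (30.8%), 7 lower (26.9%) and 1 higher (3.85%). CDK5RAP2 (-0.27), TUBGCP2 (-0.20) and TUBGCP6 (-0.21) were the smallest in adjusted p. The count of called centrosome genes ranged from 2 without si-NC replicate 1 and 3 without si-NC replicate 3 to 9.

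Of 23 cohesin and condensin genes, 6 were called and all 6 were higher (26.1%), while 17 were not called. The median log2 fold change was 0.09, with 6 of 23 genes below 0, and the difference from the 47 mitosis and spindle genes was not tested. STAG1, a cohesin subunit, rose by a log2 fold change of 0.48 (adjusted p = 3e-04, edgeR), SMC1A, of the cohesin ring, by 0.30 and STAG2 by 0.25. Of 21 regulators of mitotic transcription, 7 were called (33.3%), 4 higher (19.0%) and 3 lower (14.3%). They were led by TFDP1, the partner of E2F factors (0.38, adjusted p = 2.2e-06, edgeR), E2F7, a repressor (-0.49), and NFYA, a subunit of the CCAAT-binding factor (0.33). The count of called regulators was 4 without si-NC replicate 3.

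Genes of DNA replication and S phase, the phase before, were counted in the same way. Of 45 tested, 17 were called, 14 higher (31.1%) and 3 lower (6.67%), with a median log2 fold change of 0.09 against -0.10 for the 47 mitosis and spindle genes. MCM3, a subunit of the replicative helicase, rose from 110.8 ± 1.86 to 158.0 ± 2.17 CPM (SD, n = 3; log2 fold change 0.51, adjusted p = 4.4e-08, edgeR), MCM4 rose by 0.45 and MCM5 by 0.50. Without si-SRSF11 replicate 2, 10 of the 45 were called. The difference between the S phase and the mitosis genes was not tested as such.

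**Figure D4:**
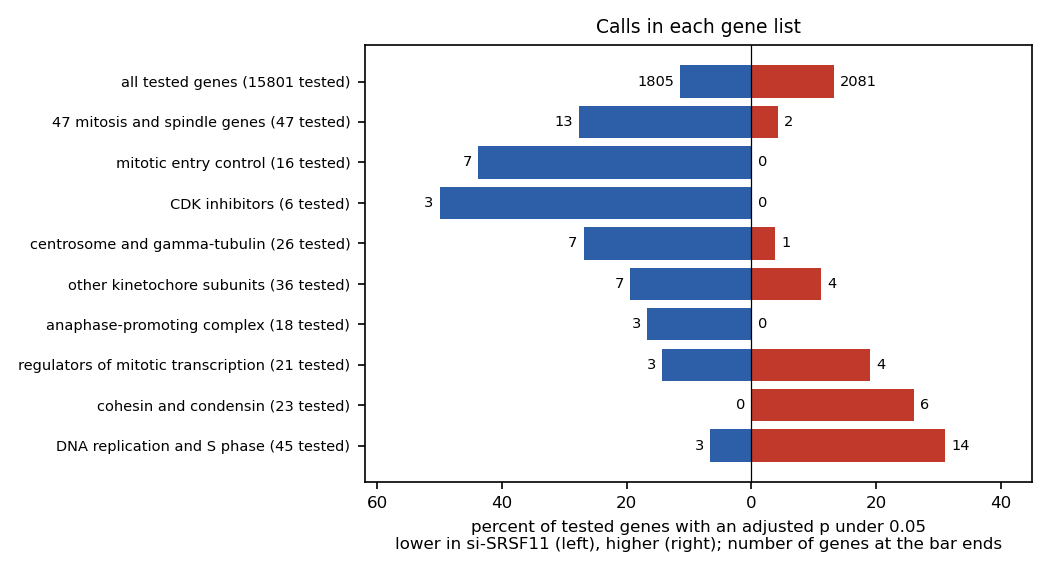
The percent of tested genes of each list with an adjusted p under 0.05, lower in si-SRSF11 to the left and higher to the right, with the number of genes at the ends of the bars. The 47 mitosis and spindle genes had 13 lower and 2 higher, while the DNA replication and S phase genes had 3 lower and 14 higher.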

How the data were processed

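Gene counts of LoVo cells (3 si-NC and 3 si-SRSF11 libraries) were analysed. The authors deposited raw counts per gene in 1 table for the 6 libraries, with hg38 named in the submitters' processing notes; the aligner, the counting program and its strand setting are not given in the sources used here. The authors also deposited the exonic length of each gene. All 58735 identifiers occurred in GENCODE 29, 58724 with the same start and end. Samples were grouped by their deposited titles. The paper brackets these library names with the opposite conditions in a plot, and the deposited labels were used.

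The 15801 genes that reached 10 counts in 3 or more libraries were scaled by TMM and tested with glmQLFit and glmQLFTest of edgeR (version 4.0.16, R version 4.3.3) on condition alone, with Benjamini-Hochberg adjustment over all tested genes. Differences are si-SRSF11 minus si-NC, and the standard error was taken from the F statistic. An exact two-sided permutation test of 3 libraries against 3 cannot go below p = 0.10, so the overlap of the groups is given in its place. Alternatives were DESeq2 (version 1.42.0), other scalings and filters, protein-coding genes only, fold thresholds, a block on replicate number and the omission of single libraries. The fit was also run on simulated counts with known changes. There, 68.2% of log2 changes of 0.5 and 85.5% of log2 changes of 1 were called, as were 0.0846% of unchanged genes. Changes under 0.5, such as those of most called members, were not simulated.

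Shared sequence was counted in windows of 100 nt of the longest transcript, identical in a transcript of another gene. All 47 members, SRSF11, and at most 3 genes of each other list with the smallest adjusted p under 0.05 are named, with markers and genes that overlap members named beside them. MKI67, CENPE and the length split were singled out after their values were seen. The members and lists were chosen with earlier results of these data known.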

Additional observations from a re-analysis of the deposited data

How the results depend on the processing

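Of 47 members, all but PLK4 and NDC80 kept their direction under the other scalings, filters and tests. PLK4 had a log2 fold change of -0.000455 with library size alone, and NDC80 had -0.0274 with library size alone, -0.00139 with upper quartile factors and -0.00468 with protein-coding genes only. With library size alone, 19 members were called, 18 lower and 1 higher, as CDK1, FOXM1, INCENP, TPX2 and ECT2 passed and BIRC5 did not, and the median of the members was -0.13 while that of all tested genes was -0.03. With protein-coding genes only the median was -0.11. With an absolute log2 fold change over 0.5, 1 member and 788 genes were called, and over 1, 173 genes and 0 members (edgeR; 0 at any unadjusted p and 0 by DESeq2). DESeq2 called 7 of the further kinetochore genes and 5 of the centrosome genes; the cause was not tested. Among the 37 members that share under 5% of exon bases and of windows, a limit chosen after seeing the data, 11 were called, 9 lower and 2 higher. The study speaks of pairs of samples without saying that a replicate number marks a shared culture or day, and whether the numbers pair the libraries is not settled by these data. The correlation of deviations was 0.0151, 0.0362 and 0.0403 for the same numbers, each below 0.1, and each library correlated best with its own number. The fit with the replicate block called 15 members, 13 lower and 2 higher, and 4036 genes in all, with SRSF11 at -0.81 and the members' median at -0.10, and it changed no member's call.

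Omitting 1 library at a time gave ranges of 8 to 15 members called, 7 to 14 lower and 1 to 2 higher, a median of -0.11 to -0.09, SRSF11 from -0.82 to -0.79 and 2741 to 3871 genes in all. For the other lists they were 2 to 3 (anaphase-promoting complex), 4 to 7 (cohesin and condensin), 8 to 12 (further kinetochore genes), 5 to 7 (mitotic entry control), 2 to 9 (centrosome), 4 to 7 (regulators of transcription), 10 to 15 (S phase) and 2 to 3 (CDK inhibitors). Uncalled members that changed sign ranged from -0.051 to 0.0216 (CCNB1), -0.0506 to 0.0804 (PLK4), -0.218 to 0.195 (CENPE), -0.0287 to 0.0454 (NDC80), -0.0573 to 0.124 (SPC25), -0.0797 to 0.00841 (KIF20A), -0.0244 to 0.276 (ASPM), -0.126 to 0.0357 (ANLN) and -0.129 to 0.0813 (MKI67). CENPE had 53 to 88 counts per library, so its value is imprecise at this depth.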
